A study of Mus musculus with 24 samples.

Results

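The 10 genes described here were the claudins of the renal tubule and collecting duct, Cldn2, Cldn3, Cldn4, Cldn7, Cldn8, Cldn10, Cldn14, Cldn15 and Cldn19, together with occludin (Ocln). They were chosen by name, through the RefSeq accessions of their probes, and all 10 were among the 27959 genes tested, on 13 of 38838 probes kept. Total RNA of 24 whole kidneys from male mice, labelled young adult and just past weaning by the age in the study's methods, was measured on single-colour Agilent arrays, 1 kidney per array. The 6 control kidneys were mgb+/+ and the other 18 came from mgb-/- (megabladder) mice, in which the bladder forms without normal smooth muscle and urine is retained. Ultrasound had placed 7 of these kidneys in the mild, 5 in the moderate and 6 in the severe grade by the amount of parenchyma left. The mice were age-matched and the labels name no drug or operation. Nothing in the labels tells if a mouse gave 1 kidney or both, so the p-values measure only the spread between these kidneys, and the mutated locus itself was not analysed here. The log2 level used throughout was the log2 of the processed signal minus the log2 of that array's 75th percentile. Levels of different genes cannot be ranked against each other on this scale, since probes differ in brightness. A gene rose or fell where limma's moderated test gave an adjusted p under 0.05 over all genes.

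Claudins are the membrane proteins that form the tight junction strands between epithelial cells, and the claudins a segment makes set which ions pass between its cells. Cldn2 forms a channel for cations and water in the leaky proximal tubule, and Cldn10 forms cation or anion channels according to its isoform. In the thick ascending limb Cldn16 and Cldn19 form the paracellular route for calcium and magnesium, which Cldn14 blocks. Cldn3, Cldn4, Cldn7 and Cldn8 are claudins of the tight distal nephron and collecting duct, and Cldn4 and Cldn8 take part in chloride passage there. Cldn15 is a cation channel known mostly from the intestine, and occludin is a strand protein of nearly all tight junctions.

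In mgb-/- kidneys as a whole, Cldn4, Cldn14, Cldn7 and Cldn15 rose against control kidneys and no gene of the 10 fell. Over all genes 13.3% were called in that comparison, 5.34% of them higher and 8% lower as shares of the genes tested. The median log2 difference of the 10 genes was 0.25, against 0.01 for all genes. Cldn14 and Cldn4 passed with a difference of at least 2-fold, as did 3.09% of all genes. In severe kidneys Cldn4, Cldn7 and Cldn15 rose and Cldn2 fell, where 16.1% of all genes were called, 6.57% higher and 9.56% lower. The median of the 10 was then 0.37 and that of all genes 0.02. Cldn4 and Cldn7 passed with a difference of at least 2-fold, as did 4.71% of all genes, while Cldn14 differed 2.44-fold without passing. Mild and moderate kidneys gave no call against control among the 10 genes in limma's fit of all 4 groups, where 6.02% and 1.2% of all genes were called. At an unadjusted p under 0.05 stood 6 and 4 of the 10, beside 5977 and 5158 of all 27959 genes. With only mild and control kidneys fitted, 5 of the 10 passed (Cldn4, Cldn7, Cldn14, Cldn15 and Ocln), where 5579 of all 27959 genes were called. Array quality weights gave 6 of the 10 in mild and 4 in moderate kidneys, where 7443 and 3262 of all genes were called. These comparisons share the same 6 control kidneys.

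**Figure D1:**
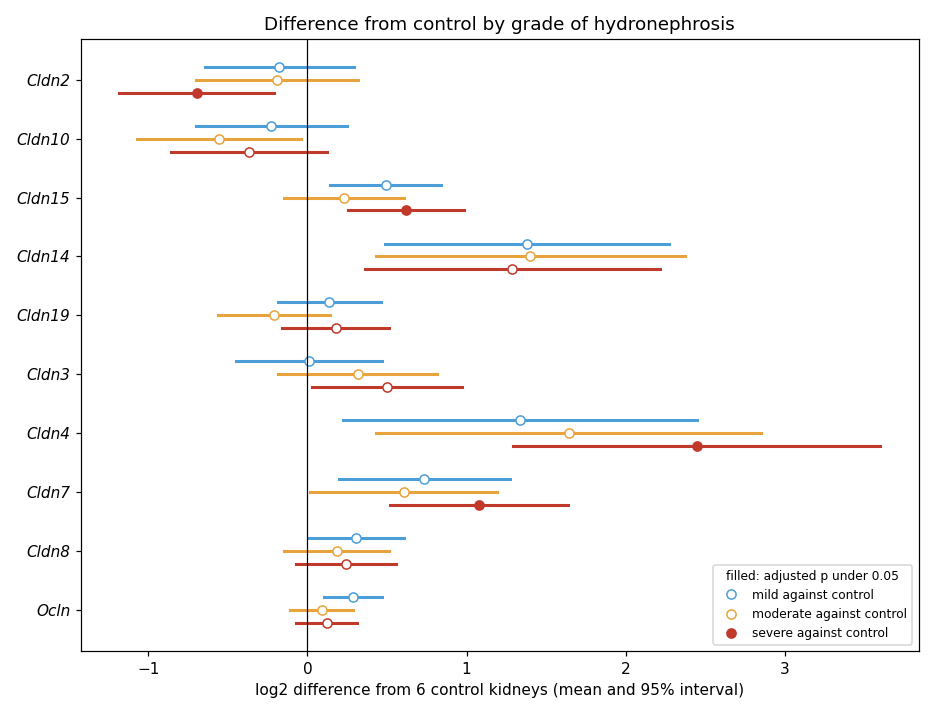
Log2 difference from the 6 control kidneys (x axis, mean with 95% interval) of each gene in mild, moderate and severe mgb-/- kidneys. Filled points mark an adjusted p under 0.05 in the fit of all 4 groups, reached in severe kidneys by Cldn4, Cldn7, Cldn15 and Cldn2, and the intervals of the 3 grades overlap for every gene.

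Between the grades themselves no gene of the 10 passed. Severe against mild kidneys gave 2 of the 10 at an unadjusted p under 0.05, beside 3104 of all 27959 genes. There 0.587% of all genes were called, and the lowest adjusted p of the 10 was 0.399, for Cldn2. Moderate against mild kidneys also gave 2, beside 1866 of all genes at that unadjusted p and 0% called. Severe against moderate kidneys gave 2, beside 2895 of all genes at that unadjusted p and 0.00715% called. A slope on the grade over the 18 mgb-/- kidneys called 0.232% of all genes. It gave 0 of the 10 at an unadjusted p under 0.05, beside 2415 of all genes, and a lowest adjusted p of 0.585, for Cldn3. The steps from grade to grade in the mean levels below are therefore within the spread between kidneys.

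**Figure D2:**
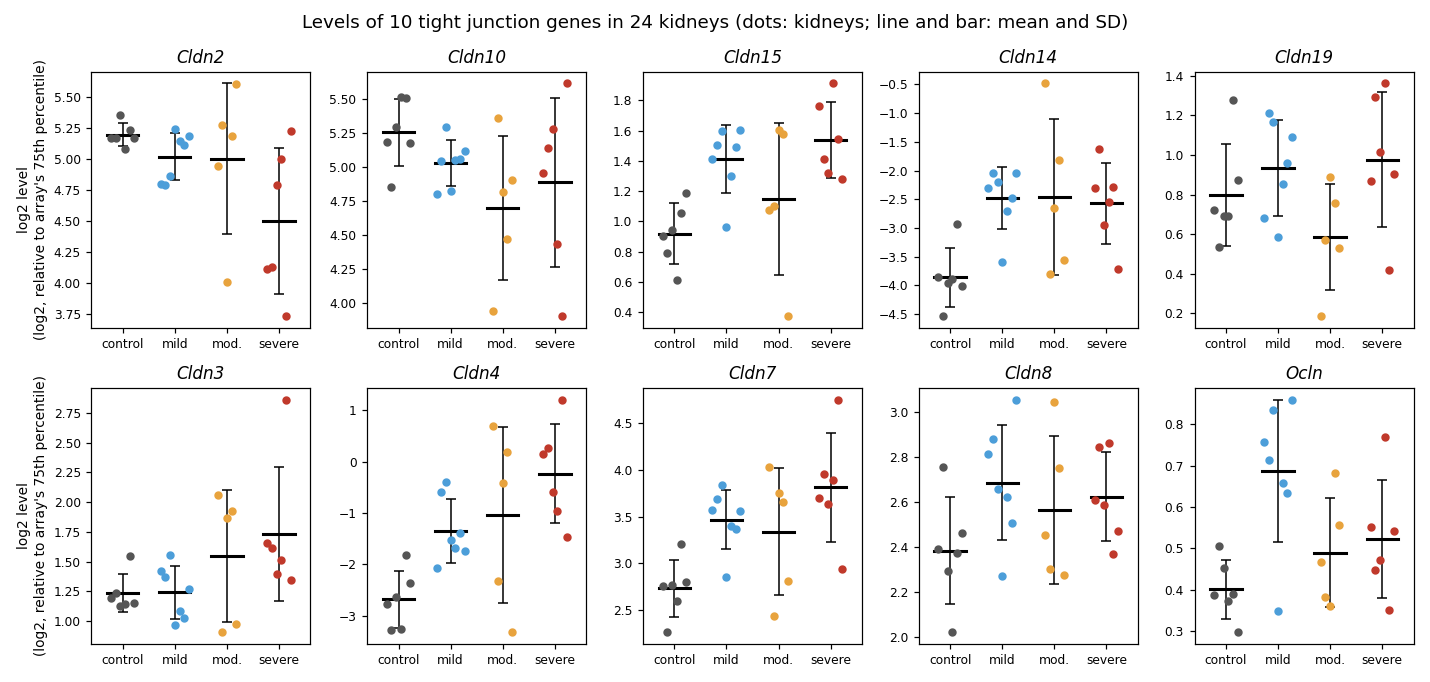
Log2 level of each gene in the 24 kidneys by group (dots), with the mean (line) and SD (bar), on a scale of its own in each panel. Cldn4, Cldn7, Cldn14 and Cldn15 sit higher in most mgb-/- kidneys, the moderate kidneys spread widely, and the lowest Cldn2 and Cldn10 points belong to moderate and severe kidneys.

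Among the collecting duct claudins, Cldn4 showed the largest difference of the 10 genes. Its log2 level ranged in control kidneys from -3.27 over a median of -2.70 to -1.81, and in mild kidneys from -2.07 over -1.53 to -0.39. The 5 moderate kidneys lay at -3.32, -2.32, -0.42, 0.18 and 0.69, and the severe kidneys ranged from -1.47 over a median of -0.22 to 1.20. Every severe kidney was above every control kidney, while moderate replicates 2 and 5 were within or below the control range. The log2 difference was 1.79 ± 0.48 (SE) for all mgb-/- kidneys, or 3.47-fold, with 17 of 18 kidneys above the control mean and an adjusted p of 0.017. In severe kidneys it was 2.45 ± 0.56 (SE), or 5.46-fold, with an adjusted p of 0.00835. A second Cldn4 probe followed the first with r = 0.98 over the 24 arrays and gave 1.42 ± 0.42 (SE) for all mgb-/- kidneys and 1.94 ± 0.50 (SE) for severe kidneys. Within the 3 slides, each with 2 control and 6 mgb-/- kidneys, the difference was 2.32, 1.32 and 1.74. The processed signal of the first Cldn4 probe was low in control kidneys, from 66 to 169. Over the 35 alternatives the Cldn4 difference for all mgb-/- kidneys ranged from 1.37 to 1.97.

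Cldn7, which is also made along the distal nephron and collecting duct, rose by 0.81 ± 0.23 (SE, adjusted p = 0.0211) in mgb-/- kidneys and by 1.08 ± 0.27 (SE, adjusted p = 0.0129) in severe kidneys on the log2 scale. Control levels ran from 2.26 over a median of 2.76 to 3.21, mild levels from 2.85 over 3.56 to 3.83 and severe levels from 2.94 over 3.80 to 4.75. The moderate kidneys stood at 2.44, 2.81, 3.66, 3.75 and 4.04. The groups overlapped, because severe replicate 6, mild replicate 4 and moderate replicates 2 and 5 lay inside the control range, and 17 of 18 mgb-/- kidneys were above the control mean. Scaling each array by its median in place of its 75th percentile gave 0.66 and an adjusted p of 0.0716 for the mgb-/- comparison, and without control replicate 2 it was 0.72 with an adjusted p of 0.0617.

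Cldn3 had a log2 difference of 0.26 ± 0.20 (SE, adjusted p = 0.419) in mgb-/- and of 0.50 ± 0.23 (SE, adjusted p = 0.136) in severe kidneys, which did not pass. Its control levels ranged from 1.13 to 1.55 and its mild levels from 0.97 to 1.55. Moderate kidneys lay at 0.91, 0.98, 1.87, 1.93 and 2.06, and the severe kidneys from 1.35 over 1.57 to 2.86. The highest value belonged to severe replicate 5, and without that kidney the severe difference was 0.27 ± 0.18 (SE). Cldn8, the partner of Cldn4 in the collecting duct, differed by 0.25 ± 0.12 (SE, adjusted p = 0.169) in mgb-/- kidneys and by 0.24 ± 0.15 (SE, adjusted p = 0.284) in severe kidneys, with a 95% interval of the severe difference from -0.07 to 0.55. Its level lay between 2.02 and 2.75 in control kidneys and between 2.27 and 3.06 in mgb-/- kidneys.

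The promoter windows of Cldn4 and Cldn3 are shown because these genes varied together over the kidneys (below) and lie on the same chromosome, and those of Cldn7, Cldn15 and Cldn2 because these genes, like Cldn4, were called in severe kidneys. Each runs from 250 bases before to 50 after the start of the gene in RefSeq (GRCm38.p6), read 5′ to 3′ on the gene's strand. Capitals mark matches on either strand to 3 motifs: the TATA box letters TATAAA, the AP-1 letters TGANTCA, which read the same on both strands, and the Sp1 letters GGGCGG, which read CCGCCC on the other strand. None of the marked matches overlap.
Cldn4, chr5:134946885-134947184, minus strand: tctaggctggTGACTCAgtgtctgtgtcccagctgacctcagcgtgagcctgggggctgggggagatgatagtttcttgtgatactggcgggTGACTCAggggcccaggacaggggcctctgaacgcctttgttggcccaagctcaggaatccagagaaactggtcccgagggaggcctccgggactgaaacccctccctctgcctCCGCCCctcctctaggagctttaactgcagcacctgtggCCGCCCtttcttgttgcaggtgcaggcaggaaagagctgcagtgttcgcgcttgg
Cldn3, chr5:134985964-134986263, plus strand: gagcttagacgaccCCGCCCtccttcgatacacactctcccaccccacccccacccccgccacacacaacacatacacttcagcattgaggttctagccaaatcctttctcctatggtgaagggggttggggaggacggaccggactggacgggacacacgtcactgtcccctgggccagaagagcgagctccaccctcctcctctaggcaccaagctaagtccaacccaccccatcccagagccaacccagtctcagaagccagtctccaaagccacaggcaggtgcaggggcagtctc
Cldn7, first start, chr11:69964529-69964828, plus strand: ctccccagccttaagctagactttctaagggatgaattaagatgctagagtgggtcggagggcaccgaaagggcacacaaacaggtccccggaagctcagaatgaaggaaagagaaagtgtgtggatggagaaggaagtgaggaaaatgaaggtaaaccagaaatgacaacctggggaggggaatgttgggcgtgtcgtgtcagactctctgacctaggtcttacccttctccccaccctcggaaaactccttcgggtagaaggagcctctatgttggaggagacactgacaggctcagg
Cldn7, second start, chr11:69965171-69965470, plus strand: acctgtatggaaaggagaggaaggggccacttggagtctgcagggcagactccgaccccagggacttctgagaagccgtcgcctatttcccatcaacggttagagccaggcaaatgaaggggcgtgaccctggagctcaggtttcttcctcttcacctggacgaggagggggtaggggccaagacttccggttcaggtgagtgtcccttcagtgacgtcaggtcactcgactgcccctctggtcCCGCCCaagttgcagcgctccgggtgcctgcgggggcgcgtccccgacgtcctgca
Cldn15, chr5:136967619-136967918, plus strand: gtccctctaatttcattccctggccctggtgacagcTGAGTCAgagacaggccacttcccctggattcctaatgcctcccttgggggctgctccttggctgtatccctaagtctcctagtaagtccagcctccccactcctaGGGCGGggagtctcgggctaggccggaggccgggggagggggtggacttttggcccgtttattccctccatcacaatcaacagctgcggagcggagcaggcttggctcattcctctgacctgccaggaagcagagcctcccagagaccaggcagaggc
Cldn2, chrX:139800558-139800857, plus strand: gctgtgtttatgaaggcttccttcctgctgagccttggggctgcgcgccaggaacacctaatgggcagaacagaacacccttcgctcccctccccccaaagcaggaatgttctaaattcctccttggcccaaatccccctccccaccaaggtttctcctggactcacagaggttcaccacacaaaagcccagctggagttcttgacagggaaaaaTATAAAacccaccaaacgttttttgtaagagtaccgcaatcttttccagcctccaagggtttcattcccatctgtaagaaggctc
The Cldn4 window held the AP-1 letters at -240 and -158 from the start and the Sp1 letters at -44 and -5. The Cldn15 window held the AP-1 letters at -214 and the Sp1 letters at -108, the Cldn3 window the Sp1 letters at -236, the second Cldn7 window the Sp1 letters at -6, and the Cldn2 window the TATA letters at -35. Of 32851 windows of this length in the table, 7.81% held the AP-1 letters, 35.7% the Sp1 letters and 13.6% the TATA letters. The first Cldn7 window and the 3 windows of Cldn14 held none of these letters. The Grainyhead letters AACCNGTT, present in 2.09% of windows, were in none of the 15 windows of the 9 genes that had one. Cldn8 had no window in the table. A match of letters is a description and not a site shown to be bound.

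Cldn14, the claudin that blocks the cation route of the thick limb, rose by 1.36 ± 0.35 (SE) in mgb-/- kidneys on the log2 scale, or 2.56-fold, with an adjusted p of 0.0146. All 18 mgb-/- kidneys were above the control mean. Control levels ran from -4.53 over a median of -3.92 to -2.93, mild levels from -3.59 over -2.31 to -2.04, and severe levels from -3.71 over -2.43 to -1.63. The 5 moderate kidneys lay at -3.80, -3.56, -2.65, -1.82 and -0.48. The ranges overlapped with that of the control kidneys in each grade, through control replicate 5 and through mild replicate 4, moderate replicates 2 and 5 and severe replicates 3 and 6. The difference was of like size in the 3 grades, at 1.38 ± 0.43 in mild, 1.40 ± 0.47 in moderate and 1.29 ± 0.45 (SE) in severe kidneys, with adjusted p of 0.0588, 0.12 and 0.0519, none of which passed. With the slide as a block the severe difference was 1.38 for Cldn14 and passed (adjusted p = 0.041). For all mgb-/- kidneys the difference within the slides was 1.89, 0.84 and 1.33.

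Cldn19, the partner of Cldn16 in the calcium and magnesium route, differed by 0.05 ± 0.14 (SE, adjusted p = 0.844) in mgb-/- kidneys, with a 95% interval from -0.24 to 0.35. The severe difference was 0.18 ± 0.16 (SE). Control levels ranged from 0.53 to 1.28 and mgb-/- levels from 0.19 to 1.36. Its lowest values were those of moderate replicate 1, at 0.19, and severe replicate 5, at 0.42.

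Cldn2, the cation and water channel of the proximal tubule, was tightly grouped in control kidneys, from 5.08 over a median of 5.17 to 5.35, with an SD of 0.09. Mild kidneys ranged from 4.79 over 5.11 to 5.24 and moderate kidneys lay at 4.01, 4.94, 5.18, 5.28 and 5.60. Severe kidneys ran from 3.73 over 4.46 to 5.22, so that 5 of the 6 were below every control kidney and replicate 6 lay within the control range. The severe difference was -0.70 ± 0.24 (SE), or 1.62-fold lower, with an adjusted p of 0.0469. It passed in 11 of the 37 alternatives tried for it and stayed negative in all of them. With the slide as a block it was -0.70 for Cldn2 with an adjusted p of 0.062, and without severe replicate 5 it was -0.54 with an adjusted p of 0.114. For all mgb-/- kidneys it was -0.35 ± 0.21 (SE, adjusted p = 0.272).

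**Figure D3:**
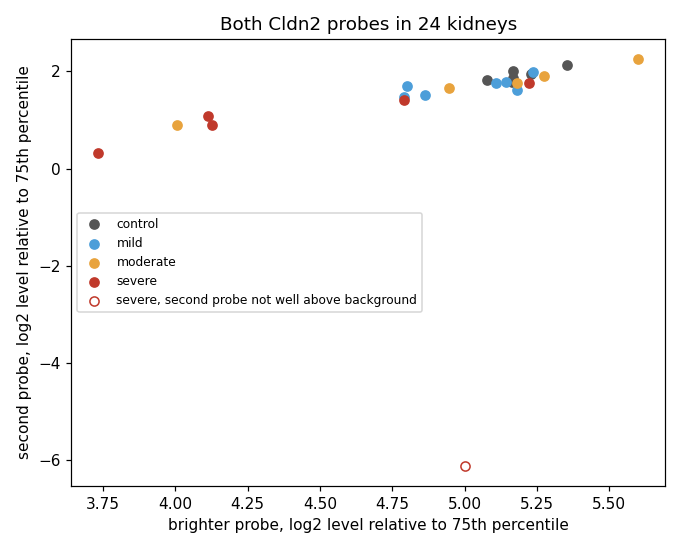
Log2 level of the second Cldn2 probe (y axis) against that of the brighter probe (x axis) in the 24 kidneys. The points lie along 1 line from severe replicate 5 at the lower left to a moderate kidney at the upper right, except severe replicate 4, whose second probe was at -6.12 and not well above background (open point).

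The second Cldn2 probe followed the brighter one with r = 0.227 over the 24 arrays and with r = 0.967 over the 23 arrays without severe replicate 4. On that array the second probe read -6.12, while the brighter probe read 5.00, and 1.11% of the array's spots were marked as outliers, the highest share of the 24. With all arrays the second probe gave a severe difference of -2.03 ± 0.84 (SE, adjusted p = 0.103). Without severe replicate 4, an alternative added after seeing the data, it gave -0.83 ± 0.21 (SE, adjusted p = 0.0159) for Cldn2.

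Cldn10 differed by -0.37 ± 0.19 (SE, adjusted p = 0.214) in mgb-/- kidneys, by -0.56 ± 0.25 (adjusted p = 0.233) in moderate and by -0.37 ± 0.24 (SE, adjusted p = 0.296) in severe kidneys, and did not pass in any of them. Its level lay between 4.86 and 5.52 in control kidneys and between 4.80 and 5.29 in mild kidneys. Moderate kidneys stood at 3.94, 4.47, 4.81, 4.90 and 5.36, and severe kidneys ran from 3.90 over 5.04 to 5.61. The lowest were severe replicate 5 and moderate replicate 1. The single probe was not assigned to an isoform of Cldn10.

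Cldn15 rose by 0.46 ± 0.15 (SE, adjusted p = 0.0437) in mgb-/- kidneys and by 0.62 ± 0.17 (SE, adjusted p = 0.0221) in severe kidneys. Control levels ran from 0.62 over 0.93 to 1.19, mild levels from 0.96 over 1.49 to 1.60 and severe levels from 1.28 over 1.48 to 1.91, so that all severe kidneys were above all control kidneys. Of the 10 genes, Cldn15 and Cldn4 had such separate ranges in that comparison, as did 5.06% of all genes. The moderate kidneys lay at 0.38, 1.08, 1.10, 1.58 and 1.61. The mgb-/- call was lost in 19 of 35 alternatives, among them scaling by the array median, where the difference was 0.31 with an adjusted p of 0.209. The severe call was lost in 4 of 36, with an adjusted p of 0.123 under that scaling.

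Ocln differed by 0.18 ± 0.08 (SE, adjusted p = 0.149) in mgb-/- kidneys. Control levels lay between 0.30 and 0.51, and mild levels between 0.35 and 0.86 with 6 of 7 above the control mean. The mild difference was 0.29 ± 0.09 (SE, adjusted p = 0.0583), beside a moderate one of 0.09 ± 0.10 and a severe one of 0.12 ± 0.09 (SE), and none passed. A second Ocln probe, with r = 0.619 to the first over the 24 arrays, gave 0.13 ± 0.18 (SE) in mgb-/- kidneys, and 0.27 ± 0.19 in mild, -0.21 ± 0.21 in moderate and 0.26 ± 0.20 (SE) in severe kidneys, so that the order of the grades differed between the probes.

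Over the 18 mgb-/- kidneys the genes varied in groups. Of the 45 pairs, 14 passed a two-sided permutation test of Pearson's r with 100000 resamples after Benjamini-Hochberg adjustment over the 45 pairs, 9 of them positive and 5 negative, and 11 pairs passed with Spearman's rho. Cldn3, Cldn4 and Cldn7 formed the closest trio. Cldn3 and Cldn7 had r = 0.858 and rho = 0.897, Cldn3 and Cldn4 r = 0.847 and rho = 0.874, and Cldn4 and Cldn7 r = 0.826 and rho = 0.86. Their permutation p was 1e-05, 1e-05 and 3e-05, the first being the smallest that 100000 resamples can give, and the adjusted p were 0.000225, 0.000225 and 0.00045. Without the 2 kidneys farthest from the median of the first gene, r was 0.763, 0.801 and 0.735. Within the slides, with 6 mgb-/- kidneys each, r ranged from 0.572 to 0.931 over the trio. After the mean of each grade was subtracted it was 0.908, 0.826 and 0.82.

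Cldn14 varied with Cldn7, at r = 0.734 and rho = 0.713 (permutation p = 7e-04, adjusted p = 0.0045), and with Cldn4, at r = 0.677 and rho = 0.637 (permutation p = 0.00218, adjusted p = 0.00981). Within the slides these were between 0.633 and 0.945. Cldn8 was linked to Cldn15, at r = 0.671 and rho = 0.726 (permutation p = 0.00126, adjusted p = 0.00709). It was also linked to Cldn19, at r = 0.657 and rho = 0.701 (permutation p = 0.00321, adjusted p = 0.0131). Its r was 0.188 with Cldn4 (permutation p = 0.454, adjusted p = 0.567) and 0.143 with Cldn3 (permutation p = 0.582, adjusted p = 0.689). With Cldn7 it was 0.398 (permutation p = 0.102, adjusted p = 0.183). These low values depended on severe replicate 5. Without that kidney, a check added after seeing the data, r was 0.355 with Cldn4, 0.484 with Cldn3 and 0.684 with Cldn7. The r of Cldn8 was then 0.733 with Cldn15 and 0.626 with Cldn19. Whether the correlations with Cldn4 differ between Cldn8 and the trio was not tested.

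Cldn2 ran opposite to the trio, at r = -0.729 with Cldn4, -0.733 with Cldn7 and -0.726 with Cldn3 (permutation p = 0.00048, 0.00057 and 0.00069, adjusted p = 0.0045 for each), and rho was -0.682, -0.783 and -0.715. Within slide 1 these r were -0.343, -0.567 and -0.212, within slide 2 -0.975, -0.93 and -0.962, and within slide 3 -0.836, -0.497 and -0.806. Cldn10 also ran opposite to Cldn3, at r = -0.709 (permutation p = 0.00143, adjusted p = 0.00715), and to Cldn7, at r = -0.62 (permutation p = 0.00672, adjusted p = 0.0252). Spearman's rho of these pairs was -0.534 and -0.465, and neither passed by it (adjusted permutation p = 0.0695 and 0.119). Without the 2 farthest kidneys the Cldn10 correlations were -0.356 and -0.345, so that they rested in part on those kidneys, while those of Cldn2 were -0.677, -0.635 and -0.502. The negative correlations also depended on the scaling of the arrays. With each array scaled by its median, those of Cldn2 were -0.433, -0.349 and -0.281 (adjusted permutation p = 0.149, 0.23 and 0.356), and those of Cldn10 were -0.419 and -0.409, none of which passed. Under the same scaling the trio kept r between 0.852 and 0.88. All correlations share the array's scaling factor, and severe replicate 5 lay at an end for several genes. Without it, a check added after seeing the data, the trio had r between 0.776 and 0.838 and Cldn2 between -0.58 and -0.646.

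**Figure D4:**
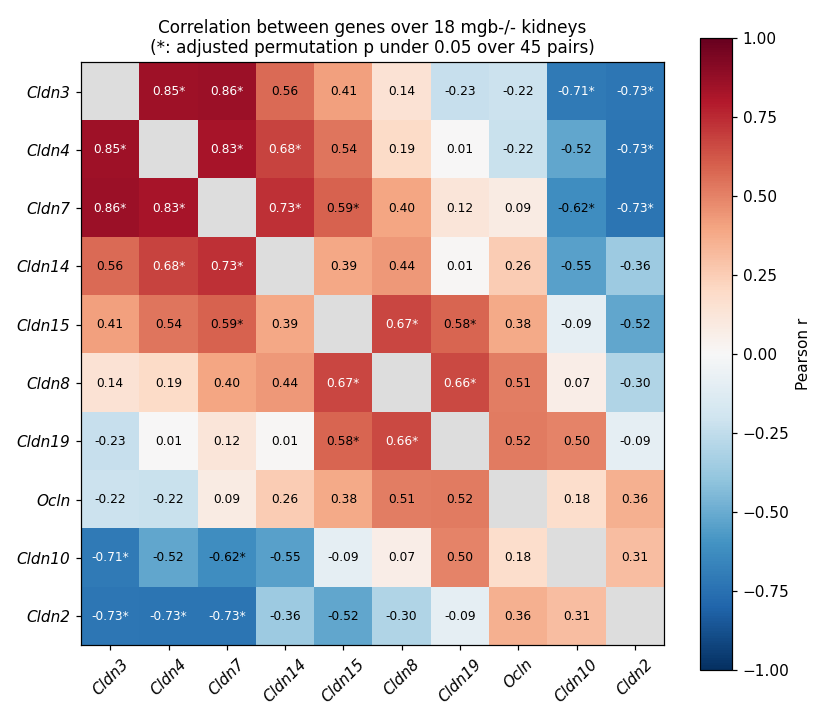
Pearson r between each pair of genes over the 18 mgb-/- kidneys (colour and printed value), with an asterisk where the adjusted permutation p over 45 pairs was under 0.05. Cldn3, Cldn4 and Cldn7 form a block of r from 0.83 to 0.86, Cldn2 and Cldn10 are negative against them, and Cldn8, Cldn15 and Cldn19 form a looser positive set.

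Markers of other cells moved with some of these genes. The urothelium list of 11 genes (5 uroplakins, 4 keratins, Foxa1 and Grhl3) rose in 11 of 11 genes in severe kidneys and in 5 of 11 in mgb-/- kidneys as a whole, with a median log2 difference of 3.53 and 1.89. The 5 became 1 without control replicate 4, 2 without control replicate 3, 3 without control replicate 1, 2 or 5, and 7 without mild replicate 1, while the 11 of severe kidneys stayed. Its mean level per kidney was between -1.80 and -0.31 in control, -1.54 and 1.50 in mild, -0.61 and 1.83 in moderate and 1.54 and 3.46 in severe kidneys, and all 11 genes were well above background on all 24 arrays. Most genes of this list had been reported by the study as higher in severe than in mild kidneys on these same arrays. Their rise in severe kidneys was therefore not independent of how they were chosen. Cldn4, Cldn7 and Cldn3 are also made by urothelium, and the part of that tissue in their levels was not tested. Mild replicates 1, 5 and 7 had urothelium list levels of -1.47, -1.54 and -1.14, below the control median of -0.81. Their Cldn7 levels of 3.57, 3.40 and 3.56, their Cldn14 levels of -2.31, -2.70 and -2.05 and their Cldn15 levels of 1.41, 1.30 and 1.60 were all above the highest control kidney. Their Cldn4 levels of -2.07, -1.68 and -1.73 lay around the highest control level of -1.81. Mild replicate 4 went the other way, with a list level of 0.30 above every control kidney. Its Cldn7, Cldn14 and Cldn15 levels of 2.85, -3.59 and 0.96 were all inside the control range. How these levels relate to the amount of urothelium was not tested.

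**Figure D5:**
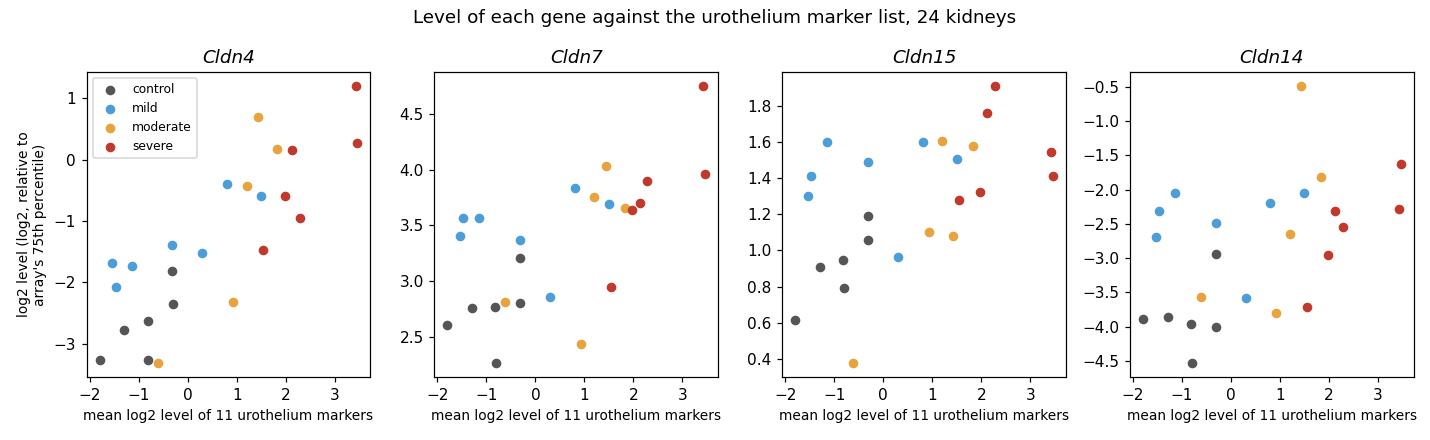
Log2 level of Cldn4, Cldn7, Cldn15 and Cldn14 (y axis) against the mean log2 level of 11 urothelium markers (x axis) in the 24 kidneys, coloured by group. The severe kidneys lie at list levels from 1.54 to 3.46. For Cldn7, Cldn15 and Cldn14, 3 mild kidneys with list levels under -1.1 lie above all control kidneys. Mild replicate 4, at a list level of 0.30, lies inside the control range for these genes.

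The lists for the members' own segments gave fewer calls. Of all genes 16.1% were called in severe and 13.3% in mgb-/- kidneys against control. Of the 10 proximal tubule genes 9 were lower in severe than in control kidneys, at a median log2 difference of -0.59. Of the 4 distal convoluted tubule genes 3 were lower, at a median of -0.60. The medians of the thick limb, principal cell and intercalated cell lists were 0.29, 0.21 and 0.16, and that of all genes 0.02. Whether Cldn2 differed from the proximal list was not tested. In severe against control kidneys 1 of 10 proximal tubule genes fell (Slc5a2), none of 7 thick ascending limb genes passed, none of 4 distal convoluted tubule genes passed, 1 of 7 principal cell genes rose (Aqp2, the water channel of the collecting duct, by 1.03 ± 0.29 (SE, adjusted p = 0.023)) and none of 7 intercalated cell genes passed. Aqp2 also rose in mgb-/- kidneys as a whole, by 0.91 ± 0.25 (SE, adjusted p = 0.0194). Severe replicate 5 had the lowest mean level of the proximal list, 3.41 against 4.62 to 5.42 in the other severe kidneys, and of the thick limb list, 4.17 against 4.72 to 5.68. The same kidney had the lowest Cldn2 and Cldn10 and the highest Cldn3, Cldn4 and Cldn7 levels. Without it the severe differences were 2.16 for Cldn4 (adjusted p = 0.0226), 0.89 for Cldn7 (adjusted p = 0.032) and 0.62 for Cldn15 (adjusted p = 0.0389). In these whole kidneys fewer cells of a type and less RNA per cell cannot be told apart. Of 5 smooth muscle genes 3 rose in severe kidneys, of 6 endothelial genes 1 fell (Kdr), and none of 5 podocyte, 5 leukocyte, 4 adrenal cortex and 4 housekeeping genes passed, although the adrenal list lay between -6.06 and -4.74 in control kidneys and reached 5.02 in a mild kidney. The part of these cells in the claudin levels was not tested.

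The other claudins of the mouse were 17 listed genes, of which 11 could be tested. Cldn16, the thick limb partner of Cldn19, rose by 1.70 ± 0.12 (SE, adjusted p = 9.22e-09) in mgb-/- kidneys with 18 of 18 above the control mean, from a mean of 0.44 in control to 2.30, 2.09 and 1.97 in mild, moderate and severe kidneys. Cldn9 fell by 0.75 ± 0.17 (SE, adjusted p = 0.00857), with 18 of 18 below the control mean. The other 9 did not pass in that comparison, where 13.3% of all genes were called. All graded kidneys were mgb-/-, so in comparisons with control the mutated locus and hydronephrosis cannot be told apart, for Cldn16 or any other gene. In severe kidneys Cldn16, Cldn23 and Cldn5, the claudin of endothelium, rose and Cldn9 fell. Cldn23 was the only claudin tested that differed between severe and mild kidneys, by 1.18 ± 0.21 (SE, adjusted p = 0.00827), a call that was lost with only the groups compared in the fit (adjusted p = 0.0952). Cldn5 was named after its values were seen.

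Of 28 partner proteins of the tight junction, 2 rose and 1 fell in mgb-/- kidneys, where 13.3% of all genes were called. The scaffold gene Magi1 rose by 0.43 ± 0.11 (SE, adjusted p = 0.0142) and Ildr1, a protein of junctions between 3 cells, by 0.60 ± 0.17 (SE, adjusted p = 0.0263), while the adhesion molecule Jam3 fell by 0.46 ± 0.15 (SE, adjusted p = 0.041). With each array scaled by its median neither Magi1 nor Ildr1 passed (adjusted p = 0.204 and 0.104), and the Jam3 call was lost in 16 of 35 alternatives, with an adjusted p of up to 0.0946. The polarity kinase Prkci, next in order, differed by 0.20 ± 0.07 (SE, adjusted p = 0.0766). In severe kidneys, where 16.1% of all genes were called, 5 partners rose and 2 fell. Among them the scaffold gene Tjp3 rose by 0.57 ± 0.16 (SE, adjusted p = 0.0219). No partner passed in severe against mild kidneys, where Wnk1, Tjp3 and Cgn, among those with the smallest p, had adjusted p of 0.199, 0.281 and 0.334. Of 13 genes of calcium and magnesium handling, Cyp27b1, which makes active vitamin D, rose by 1.70 ± 0.45 (SE, adjusted p = 0.016) in mgb-/- kidneys and the other 12 did not pass, among them Casr, the calcium-sensing receptor, at 0.06 ± 0.19 (SE).

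The genes whose level was most like that of each claudin over the 24 kidneys were taken from 27633 genes by Pearson's r, as a description. Cldn4 was closest to Tgfb3 (r = 0.958), Capg (0.943) and Lox (0.938), and Cldn7 to Tpbg (0.946), Cdh6 (0.933) and Lrfn4 (0.933). Cldn14 was closest to Stat3 (r = 0.912), Sphk1 (0.894) and Wfdc2 (0.89), and Cldn15 to Higd1b (0.895), Scel (0.888) and Rasgef1b (0.886). For Cldn2 they were Folr1 (r = 0.968) and Iah1 (0.963), for Cldn3 Slc16a3 (0.933) and Lgals3 (0.925) and for Cldn10 Tmem86a (0.91) and Gcnt1 (0.872), each beside 1 probe without a gene symbol. Cldn8 was closest to BC027670 (r = 0.874), Sybu (0.867) and Sort1 (0.867), Cldn19 to Dnah11 (0.892), Xab2 (0.877) and Slc4a1 (0.847) and Ocln to Rb1 (0.875), Tmem117 (0.863) and Arhgef3 (0.852). The points share the array scaling and, through the 6 control and 18 mgb-/- kidneys, the group difference.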

How the data were processed

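The 24 arrays filled 3 slides, and every slide carried 2 control kidneys beside 6 mgb-/- kidneys. The authors deposited the scanner output of each array, made with Agilent Feature Extraction 10.10, whose processed signal is a background-subtracted intensity with no normalization between arrays, and a table of intensities normalized between arrays by a method not given in the sources used here. This signal was put on the log2 scale, less the log2 of the 75th percentile of the array's non-control spots. Outlier spots were left out, spots of a probe averaged, probes kept if 5 or more arrays showed them well above background (38838 of 55681), and the brightest probe of a gene used. On single arrays 56.6% to 71.5% of spots stood well above background, and none was saturated. The number of arrays limits the precision. Probes were named by accession through RefSeq (GRCm38.p6), which named 26762, while the files' own annotation is of build mm9.

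R 4.3.3 with limma 3.58.1 fitted control and mgb-/- as 2 groups, and the grades with control as 4, with Benjamini-Hochberg adjustment over 27959 genes. On simulated data for mgb-/- against control with 27634 genes, 65% of genes changed by 1 and 92% of those changed by 2 (log2) were recovered. Only 100 genes were changed by each size and the noise was independent between genes. These shares therefore do not give the recovery in the real data, where 13.3% of genes were called. Beside the 10 genes, those named were other claudins and genes of calcium and magnesium handling with an adjusted p under 0.05 in mgb-/- against control or severe against mild, the 4 junction partners with the smallest p in each of these, marker genes, and the 3 genes most like each of the 10. One gene that this rule names is not reported here. The genes and lists were chosen with earlier results of these data known. Alternatives covered the scaling, background, filter, probe, blocks, array weights, groups fitted and each kidney left out. Figures used matplotlib 3.10.9.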

Additional observations from a re-analysis of the deposited data

Results flagged for a closer look

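Of 40 groups of kidneys, 4 for each of the 10 genes, 3 held a kidney whose gap to its nearest neighbour was large for the range of its group by Dixon's test, a test that flags about 1 group in 20 by chance. For Cldn14 it was mild replicate 4, at a log2 level of -3.59, below the other mild kidneys. For Cldn3 it was control replicate 5, at 1.55, and severe replicate 5, at 2.86, each above the rest of its group.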

How the results depend on the processing

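No member reversed its direction where it was called. Of 2868 values of single members under an alternative, 2773 stayed on their side of the threshold, 52 lost a call, 43 gained one, and 64 values called in neither fit turned sign. Cldn4 was called in 35 of 35 alternatives of mgb-/- against control and in 36 of 36 of severe against control, Cldn7 in 32 and 36, and Cldn14 in 35 and 10. The Cldn23 call in severe against mild was lost with the replicate block (adjusted p = 0.0581). Counts of members called in mgb-/- against control were 4, and 2 with a 2-fold minimum, with a block for the replicate number or with scaling by the array median. Of all 27959 genes 3732 were called there, and 864, 2117 and 3403 under these 3 alternatives. In severe against control 4 members were called, and 2 under the same 3 alternatives. Of all genes 4509 were called there, and 1318 with the 2-fold minimum. Scaling by the median moved the median of all genes from 0.01 to -0.15 in mgb-/- and from 0.02 to -0.15 in severe kidneys, and the share of calls that were higher from 40% to 17.7% and from 40.7% to 22.5%. For severe kidneys that share was 50.2% with the authors' table and 59.8% with only the groups compared. In mild against control 0 became 6 with array quality weights (7443 of 27959 genes called) and 5 with only the groups compared (5579 called). It became 2 with probes well above background on all arrays (1907 of 20929 called) and 1 with quantile normalization (1600 of 27959 called). In moderate against control 0 became 4 with array quality weights (3262 called). The causes were not tested.

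Leaving out 1 kidney gave 2 to 4 members in mgb-/- against control (2 without control replicate 2) and 0 to 3 in mild (3 without mild replicate 4). It gave 0 to 1 in moderate and 2 to 5 in severe against control (2 without control replicate 4 or severe replicate 1). The comparisons between grades and the slope gave 0. Of all 27959 genes these fits called 1751 to 4696 in mgb-/-, 819 to 2463 in mild and 16 to 1220 in moderate against control. Same-numbered kidneys of different groups did not as a set deviate together (median r 0.005 over 33 pairs, 10 of them over 0.1, highest 0.646). Pairs with other numbers had a median of 0.004 and a highest r of 0.577, and 6 of 24 kidneys were closest to their own number. Whether any of these kidneys share a mouse cannot be told from this. Kidneys of different groups on the same slide had a median r of 0.072 over 70 pairs, against -0.037 over 145 pairs on other slides. Normexp used the median signal and a background, with an offset of 50. The 14 pairs of members that passed became 13 with quantile normalization and 15 with values centred within grade. With scaling by the array median 15 passed, of which 9 were among the 14, with all 5 negative pairs lost and 6 others gained. With the slide as a block 4 members were called in severe against control, with Cldn14 in place of Cldn2.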
